A study of Mus musculus with 12 samples.

Results

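The 31 genes described here make cholesterol, sense it, take it up, move and store it, or export it, and were chosen by name from the 38887 gene identifiers of a count table of Ly6G+ spleen cells of mice. All 31 were found in the table and all 31 passed the filter on low counts, with 51 to 8869 counts in a library. By role they fall into 7 genes of the mevalonate arm, 11 of the arm from squalene to cholesterol, 5 of sterol-regulated control, 4 of uptake, transport and storage, and 4 of the liver X receptors (LXR) and efflux. Polyadenylated RNA was sequenced in 12 libraries, 3 for each of 4 ages of mice: 2 days, 7 days, 14 days and 6 weeks. At each age the cells carry the label PMN-MDSC, that is, polymorphonuclear myeloid-derived suppressor cells. Neutrophils are recognised by Ly6G on their surface, and the 4 groups differ in the labels only by age. Genotype, strain, sex, treatment and the number of mice behind a library are not given in the sources used here. Separate mice are not named for the replicates of an age, so a p-value reflects only how these libraries scatter, and that scatter could be technical. The study's title concerns the transient suppressive function of neutrophils early in life.

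Cells build cholesterol from acetyl-CoA: the mevalonate arm makes isoprenoid units, squalene is assembled from them, and a long series of enzymes closes and trims the ring. The transcription factor SREBP-2 drives most of these genes when sterols in the endoplasmic reticulum run low, and SCAP carries it to the Golgi for activation unless an INSIG protein holds the pair back. When sterols are plentiful, oxysterols bind the liver X receptors, which raise the exporters ABCA1 and ABCG1. Export of this kind is best known from macrophages, and in mice it also restrains the output of myeloid cells.

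The libraries were of even depth, with totals of 34495767 to 38795913 counts and 18912 to 20255 genes detected. Levels below are CPM, that is, counts in proportion to the normalized library size, and replicates are named by the number in the labels. The neutrophil genes S100a8 and S100a9 were abundant at every age (for S100a8, 9211, 16330 and 11010 CPM at 2 days, 8905, 8698 and 9321 at 7 days, 13300, 12250 and 10260 at 14 days, and 12570, 12580 and 13310 at 6 weeks), and Ly6g itself was at 74.9, 112 and 94.4 CPM at 2 days, 94.5, 116 and 99.5 at 7 days, 190, 159 and 156 at 14 days, and 180, 185 and 168 at 6 weeks. Among the 12 libraries, 2-day replicate 2 and 14-day replicate 1 stood apart from the others of their age, with Spearman correlations across genes of 0.971 to 0.98 and of 0.986, against 0.992 and 0.994 between the remaining pairs. Every Ly6g value at 2 and 7 days lay below those at 14 days and 6 weeks. Other neutrophil genes varied too. Means of Retnlg were 6026 CPM at 2 days, 1340 at 7 days, 1943 at 14 days and 2184 at 6 weeks. Those of Camp were 2262, 4790, 5653 and 4281 CPM in the same order. Markers of other cells also differed with age. The summed level of 17 macrophage and monocyte markers was 1125 to 1771 CPM at 2 days, 2707 to 2819 at 7 days, 1697 to 2023 at 14 days and 5188 to 5470 at 6 weeks. At 7 days the sums of erythroid markers (3833 to 6526 CPM), cell cycle genes (2195 to 2385) and heat-shock genes (28870 to 33880) all lay above those of the 9 other libraries, where their highest values were 993, 1302 and 1898. At 2 days 10 mast cell markers summed to 3912 to 6411 CPM, against 615 to 1635 at the later ages. Most of the later sums was Hdc, with means of 599, 1018 and 1475 CPM at 7 days, 14 days and 6 weeks, beside 1365 at 2 days. The marker Cpa3 had means of 692.5 CPM at 2 days, 13.5 at 7 days, 0.752 at 14 days and 0.762 at 6 weeks. The part of these markers in the sterol gene results was not tested. In such bulk libraries fewer cells of a type and less RNA per cell cannot be told apart. Y-linked transcripts were counted 1816 to 4010 times in each library at 2 and 7 days and at most 1 time at 14 days and 6 weeks. Xist, a transcript of female cells, was at 158.5 to 206.9 CPM at 2 days and 186.9 to 441.2 at 7 days. It was at 322.2 to 507.9 CPM at 14 days and 228.8 to 303.2 at 6 weeks. Each library at 2 and 7 days thus held RNA of both sexes. A difference in the mix of sexes and a difference in age cannot be told apart between those pairs of ages.

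Of the 31 sterol genes, 26 differed among the 4 ages (edgeR quasi-likelihood F test, Benjamini-Hochberg adjusted p below 0.05, here called), a share to be read against 69.2% of all 15494 genes tested. Among the 26, mean levels were highest at 6 weeks for 17 genes, at 14 days for 5, at 2 days for 2 and at 7 days for 2. The lowest mean lay at 7 days for 17 genes, at 14 days for 5 and at 2 days for 4. Among these 26 genes the lowest mean thus lay most often at 7 days and the highest most often at 6 weeks. No such tally was made over all genes called, so how far these counts depart from theirs is not known. The 5 genes without a call were Mvd (adjusted p = 0.516), Lss (0.0686), Dhcr7 (0.0715), Insig2 (0.548) and Soat1 (0.493).

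Against 6 weeks, called sterol genes were nearly always lower at the younger age. At 7 days 20 of 31 (64.5%) were lower and 0 higher, while 26.6% of all genes tested were called lower and 24.5% higher. At 2 days 12 were lower (38.7%, background 19.7%) and 1 was higher (3.23%, background 20.7%). At 14 days 8 were lower (25.8%, background 9.26%) and 0 higher (background 9.68%). Median log2 fold changes over the 31 genes were -0.31 at 2 days, -0.58 at 7 days and -0.38 at 14 days, beside medians of 0.04, -0.01 and 0.00 over all genes tested. These 3 comparisons share the 6-week libraries, so their directions are not independent of each other. The counts moved with the scaling. With library totals alone in place of the trimmed mean of M-values factors, 3 sterol genes rather than 8 were lower at 14 days, and at 7 days 12 rather than 20 were lower and 1 (Msmo1) was higher, while the 7-day median of all genes moved from -0.01 to 0.16. Under that scaling the split of all genes called at 7 days moved from 47.9% to 59.3% higher. Without 2-day replicate 2 the count of lower sterol genes at 14 days became 17, and it became 5 when 14-day replicate 1 was left out, or either of 6-week replicates 2 and 3. The count at 2 days became 7 without 2-day replicate 3.

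**Figure D1:**
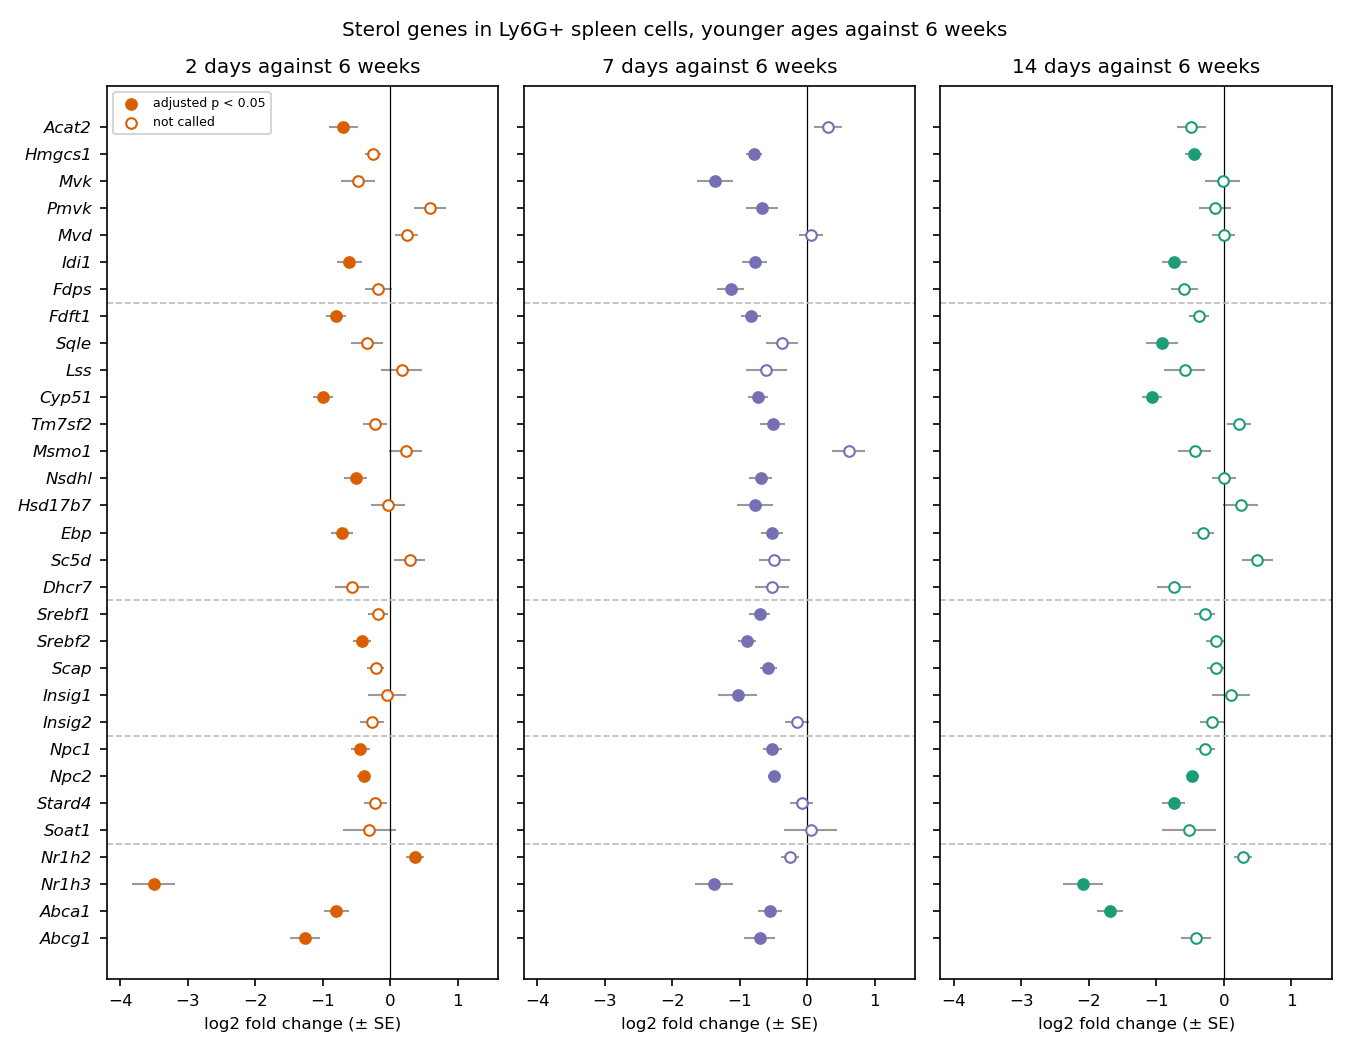
Log2 fold change (x axis, ± SE) of each of the 31 sterol genes at 2, 7 and 14 days against 6 weeks, 3 libraries per age. Filled points have an adjusted p below 0.05, and dashed lines part the mevalonate arm, the squalene to cholesterol arm, sterol-regulated control, uptake and storage, and LXR with efflux. Most filled points lie left of 0, and Nr1h3 at 2 days lies farthest left at -3.50.

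**Figure D2:**
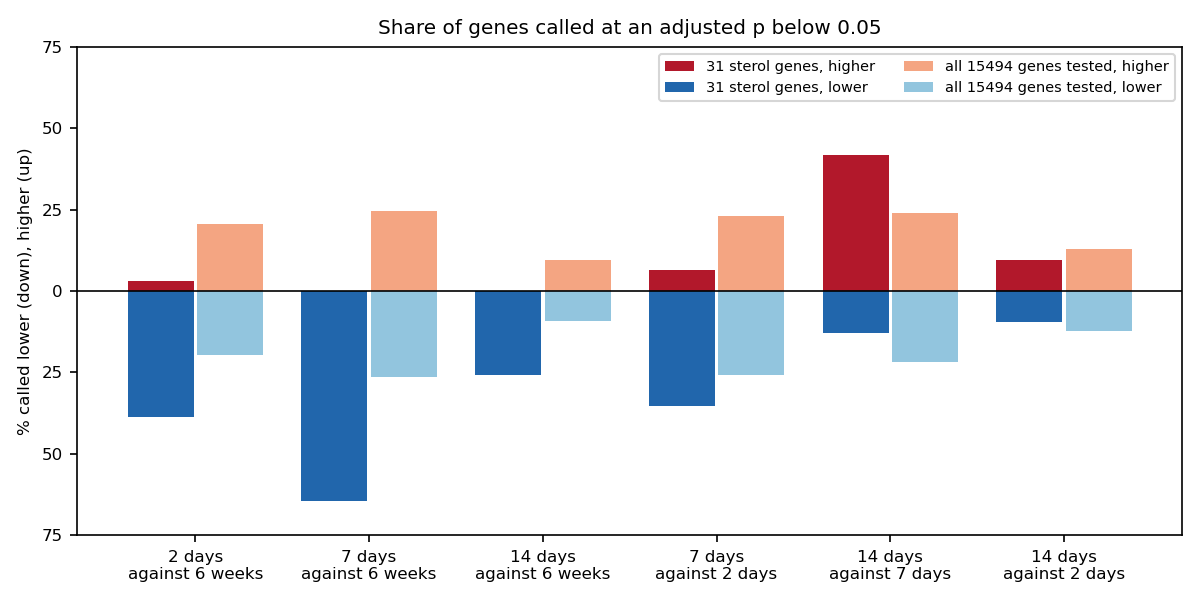
Share of genes called higher (bars up) or lower (bars down), in percent (y axis), for the 31 sterol genes (dark) and all 15494 genes tested (pale) in each of the 6 pairs of ages. At 7 days against 6 weeks 64.5% of the sterol genes were called lower, beside 26.6% of all genes.

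The mevalonate arm was lower at 7 days than at 6 weeks in 5 of its 7 genes (71.4%, background 26.6%). Hmgcs1 (chr13:119690379-119708260, plus strand in mm10, as are all positions here), which makes HMG-CoA at the entry of the pathway, was at 26.4, 23.1 and 25.3 CPM at 2 days, 16.4, 19.1 and 16.4 at 7 days, 20.6, 23.1 and 21.9 at 14 days, and 26.1, 33.96 and 29.6 at 6 weeks. All 3 libraries at 7 days lay below the 9 others. The log2 fold change against 6 weeks was -0.79 ± 0.12 (SE, adjusted p = 0.000227) at 7 days, a 1.73-fold lower level. Mvk, the mevalonate kinase of the next steps (chr5:114444269-114460591, plus strand), had the largest fold change of the arm at 7 days: 4.24, 2.11 and 2.63 CPM at 2 days, 1.79, 1.35 and 1.74 at 7 days, 3.68, 4.49 and 4.21 at 14 days, and 3.37, 5.03 and 4.15 at 6 weeks. Its level was 2.57-fold lower at 7 days than at 6 weeks (log2 -1.36 ± 0.27 SE, adjusted p = 0.00114), and again all 3 libraries at 7 days lay below all others, whereas the 14-day and 6-week libraries overlapped. Fdps makes farnesyl diphosphate, the branch point towards sterols and prenylated proteins (chr3:89093588-89101959, minus strand), and was at 18.9, 11.9 and 16.6 CPM at 2 days, 9.14, 7.67 and 7.59 at 7 days, 9.02, 13.2 and 13.3 at 14 days, and 14.9, 20.6 and 17.96 at 6 weeks. It was 2.19-fold lower at 7 days (log2 -1.13 ± 0.20 SE, adjusted p = 0.000637), with 1 library at 14 days, replicate 1, at the 7-day level. The annotated exons of Fdps share 26.7% of their length with another gene model on the same strand, and those of Hmgcs1 share 12.1% with an antisense model; neither model has a row in the table.

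Idi1, the isomerase that provides the reactive isoprenoid unit, was highest at 6 weeks in every library: 8.30, 10.01 and 7.31 CPM at 2 days, 7.06, 6.75 and 8.97 at 7 days, 6.65, 8.84 and 7.93 at 14 days, and 10.5, 15.02 and 13.6 at 6 weeks. The 3 younger ages overlapped each other, and each was called lower than 6 weeks, with log2 fold changes of -0.61 ± 0.18 (SE) at 2 days, -0.78 ± 0.18 at 7 days and -0.74 ± 0.18 at 14 days (adjusted p = 0.0193, 0.00389 and 0.0159). Hmgcs1 was also called lower at 14 days (log2 -0.45 ± 0.12 SE, adjusted p = 0.0220). The 14-day calls of Hmgcs1 and Idi1 ended without 14-day replicate 1 or either of 6-week replicates 2 and 3, and that of Hmgcs1 also without 14-day replicate 3 (log2 fold changes of -0.46 to -0.35 and -0.71 to -0.63). The 2-day call of Idi1 ended without 2-day replicate 3 or either of 6-week replicates 2 and 3 (-0.58 to -0.50).

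Pmvk and Acat2 had other courses. Pmvk, the kinase after Mvk, was highest at 2 days: 12.5, 13.4 and 25.97 CPM at 2 days, 6.62, 8.10 and 7.01 at 7 days, 9.25, 11.4 and 10.9 at 14 days, and 10.6, 11.3 and 12.7 at 6 weeks. There replicate 3 stood above the other libraries, and all 3 libraries at 7 days lay below the 9 others. At 7 days it was lower than at 6 weeks (log2 -0.67 ± 0.24 SE, adjusted p = 0.0336), a call that ended without 7-day replicate 1 or 3, 14-day replicate 2 or any single 6-week library (-0.73 to -0.58). Acat2, a thiolase that makes acetoacetyl-CoA, was the 1 sterol gene with all 3 libraries at 7 days above the 9 others: 3.42, 5.30 and 3.07 CPM at 2 days, 8.87, 7.14 and 7.57 at 7 days, 3.68, 4.43 and 5.50 at 14 days, and 6.66, 6.57 and 5.79 at 6 weeks. Its difference from 6 weeks was called at 2 days (log2 -0.69 ± 0.22 SE, adjusted p = 0.0234) and not at 7 days (log2 0.31 ± 0.21 SE, adjusted p = 0.244). The 2-day call ended without 2-day replicate 1 or 3, or 6-week replicate 1 or 2 (-0.67 to -0.57). Mvd, the decarboxylase of the arm, had log2 fold changes of 0.24, 0.06 and -0.01 at 2, 7 and 14 days, none called. Summed over its 7 genes the arm gave 103 to 111 CPM at 2 days, 76.4 to 82.4 at 7 days, 80.4 to 95.5 at 14 days and 99.5 to 124 at 6 weeks.

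Between squalene and cholesterol 6 of 11 genes were lower at 7 days than at 6 weeks (54.5%, background 26.6%). At 2 days 4 were lower (36.4%, background 19.7%) and at 14 days 2 (18.2%, background 9.26%), and none was higher at any of these ages. Cyp51, the sterol demethylase that acts early on the closed ring (chr5:4081145-4104746, minus strand), was called lower at all 3 younger ages. Its libraries were at 8.22, 8.10 and 7.61 CPM at 2 days, 8.77, 9.34 and 10.8 at 7 days, 6.77, 7.59 and 8.52 at 14 days, and 13.4, 18.1 and 16.3 at 6 weeks. Every 6-week library lay above all 9 younger ones. The level was 2.00-fold lower at 2 days (log2 -0.999 ± 0.15 SE, adjusted p = 0.000229), 1.65-fold lower at 7 days (log2 -0.72 ± 0.15 SE, adjusted p = 0.00146) and 2.09-fold lower at 14 days (log2 -1.06 ± 0.15 SE, adjusted p = 0.000554). All 3 calls were kept whichever single library was left out.

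Fdft1, squalene synthase, the enzyme that commits farnesyl diphosphate to sterols, was at 9.12, 9.12 and 8.57 CPM at 2 days, 9.58, 8.36 and 8.25 at 7 days, 11.03, 12.2 and 12.8 at 14 days, and 12.5, 18.4 and 15.9 at 6 weeks. The 2-day and 7-day libraries overlapped and lay below the 6-week ones, with log2 fold changes of -0.80 ± 0.15 (SE, adjusted p = 0.00105) and -0.84 ± 0.15 (SE, adjusted p = 0.000578). Exons of Fdft1 overlap those of the cathepsin gene Ctsb on the opposite strand over 774 bases (18.3% of the Fdft1 exon length), Ctsb had mean levels of 310, 981, 615 and 1604 CPM at the 4 ages, and whether the counting used strand is not given in the sources used here. Ebp, an isomerase that shifts a ring double bond, was at 19.8, 31.1 and 18.9 CPM at 2 days, 28.4, 28 and 23.5 at 7 days, 31.1, 29.3 and 31.9 at 14 days, and 37.03, 39.4 and 38.5 at 6 weeks. It was lower at 2 days (log2 -0.72 ± 0.17 SE, adjusted p = 0.00419) and at 7 days (log2 -0.53 ± 0.16 SE, adjusted p = 0.0180). The 7-day call ended without 7-day replicate 3 (-0.41) or 6-week replicate 2 (-0.50).

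Nsdhl and Hsd17b7 act with Msmo1 to remove methyl groups from the ring. Nsdhl was at 7.05, 4.77 and 5.89 CPM at 2 days, 4.46, 5.85 and 5.41 at 7 days, 8.26, 8.54 and 8.58 at 14 days, and 7.36, 9.83 and 8.17 at 6 weeks, and the libraries at 2 and 7 days all lay below those at 14 days and 6 weeks. It was called lower at 7 days (log2 -0.69 ± 0.17 SE, adjusted p = 0.00576) and at 2 days (log2 -0.52 ± 0.17 SE, adjusted p = 0.0329), the latter not without 2-day replicate 2 or 3, or 6-week replicate 2 or 3 (-0.54 to -0.38). Both Nsdhl and Ebp lie on the X chromosome. Hsd17b7 was at 7.02, 3.10 and 5.70 CPM at 2 days, 3.14, 3.02 and 3.34 at 7 days, 6.60, 6.12 and 6.58 at 14 days, and 4.29, 6.83 and 5.11 at 6 weeks, and was lower at 7 days (log2 -0.77 ± 0.26 SE, adjusted p = 0.0260) in a call that ended without any single 7-day library or 6-week replicate 2 (-0.78 to -0.57).

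Msmo1, the methyl oxidase of the same steps, did not follow them (chr8:64718139-64733792, minus strand). Its libraries were at 29.2, 69.2 and 36.2 CPM at 2 days, 54.6, 63.99 and 57.4 at 7 days, 28.4, 28.8 and 27.9 at 14 days, and 32.2, 44.7 and 38.2 at 6 weeks. The 7-day libraries lay above the 6-week and 14-day ones, and 2-day replicate 2 was the highest of all. The 7-day difference from 6 weeks missed the threshold (log2 0.61 ± 0.25 SE, adjusted p = 0.0553), and passed it without any single 2-day library or 14-day replicate 2 (0.64 to 0.65). The remaining genes of the arm were 1 called and 4 uncalled at 7 days. Tm7sf2, a sterol reductase, was lower (log2 -0.51 ± 0.18 SE, adjusted p = 0.0331), which ended without 2-day replicate 3, 7-day replicate 1 or 3, 14-day replicate 2, or 6-week replicate 2 or 3 (-0.55 to -0.29); its exons overlap those of Vps51 on the same strand over 12.1% of their length. Sqle, squalene epoxidase and a rate-limiting step of the arm, was called lower only at 14 days (log2 -0.92 ± 0.24 SE, adjusted p = 0.0198), and not without 14-day replicate 1 or either of 6-week replicates 2 and 3 (-0.87 to -0.76). Lss, which closes the ring, Sc5d and Dhcr7, which act at its end, had log2 fold changes at 7 days of -0.60, -0.49 and -0.52, none called. The summed level of the 11 genes was 132 to 175 CPM at 2 days, 143 to 157 at 7 days, 142 to 154 at 14 days and 148 to 187 at 6 weeks, ranges that overlap across all ages.

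The genes of sterol-regulated control were lower at 7 days than at 6 weeks in 4 of 5 cases (80%, background 26.6%). Srebf2, which encodes SREBP-2, was the most abundant of them per length of annotated exon (chr15:82147181-82205379, plus strand). It was at 155, 127 and 123 CPM at 2 days, 104, 97.4 and 92.1 at 7 days, 159, 161 and 180 at 14 days, and 153, 215 and 176 at 6 weeks. All 3 libraries at 7 days lay below the 9 others, and those at 14 days and 6 weeks overlapped. Srebf2 was 1.85-fold lower at 7 days than at 6 weeks (log2 -0.89 ± 0.14 SE, adjusted p = 0.000239) and 1.34-fold lower at 2 days (log2 -0.42 ± 0.14 SE, adjusted p = 0.0280). The 2-day call ended without 2-day replicate 3 (-0.38) or either of 6-week replicates 2 (-0.28) and 3 (-0.45). Insig1, which holds SCAP in the endoplasmic reticulum and is itself a SREBP target (chr5:28071363-28078662, plus strand), was at 20.4, 10.1 and 19.8 CPM at 2 days, 8.14, 9.29 and 8.17 at 7 days, 28.02, 13.9 and 14.1 at 14 days, and 17.6, 17.7 and 16.9 at 6 weeks. Its 3 libraries at 7 days lay below all others, although 2-day replicate 2 came close, and 14-day replicate 1 was the highest of the 12. At 7 days it was 2.04-fold lower than at 6 weeks (log2 -1.03 ± 0.29 SE, adjusted p = 0.0103). At 14 days its log2 fold change against 6 weeks was 0.10 ± 0.28 (SE) with all libraries and -0.31 without 14-day replicate 1. Scap and Srebf1 were lower at 7 days as well (log2 -0.58 ± 0.12 SE, adjusted p = 0.00201, and log2 -0.70 ± 0.15 SE, adjusted p = 0.00257), whereas Insig2 was not called (log2 -0.15 ± 0.18 SE, adjusted p = 0.492). Of these, the calls of Scap and Srebf1 ended with library totals alone (-0.40 and -0.52), as did the 7-day calls of Pmvk, Tm7sf2, Nsdhl, Hsd17b7, Npc2 and Abca1. The 5 genes summed to 227 to 298 CPM at 2 days, 182 to 202 at 7 days, 284 to 303 at 14 days and 296 to 356 at 6 weeks.

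Upstream sequence is shown for Hmgcs1 and Srebf2, which hold the short core of the sterol element to which SREBP binds, and for Insig1, a SREBP target that was lower with Srebf2 at 7 days and does not hold the core in this window. Each line gives the bases of the RefSeq promoter window (GRCm38.p6) that lie before both the RefSeq start site and the GENCODE gene start, 5′ to 3′ on the plus strand. Capitals mark, on either strand, the sterol element core TCACNCCA, and the NF-Y box CCAAT and the Sp1 box GGGCGG, the latter pair known to work beside SREBP.
Hmgcs1, chr13:119690101-119690350, plus strand: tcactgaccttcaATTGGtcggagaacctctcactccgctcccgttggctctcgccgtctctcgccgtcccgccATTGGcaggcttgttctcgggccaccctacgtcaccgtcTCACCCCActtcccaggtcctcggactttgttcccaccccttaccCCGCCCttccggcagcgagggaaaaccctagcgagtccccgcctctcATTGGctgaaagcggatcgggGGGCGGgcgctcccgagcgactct
Srebf2, chr15:82147019-82147180, plus strand: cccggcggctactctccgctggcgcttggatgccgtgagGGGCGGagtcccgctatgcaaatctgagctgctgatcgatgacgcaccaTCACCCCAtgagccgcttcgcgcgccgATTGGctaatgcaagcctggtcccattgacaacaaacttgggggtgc
Insig1, chr5:28071162-28071362, plus strand: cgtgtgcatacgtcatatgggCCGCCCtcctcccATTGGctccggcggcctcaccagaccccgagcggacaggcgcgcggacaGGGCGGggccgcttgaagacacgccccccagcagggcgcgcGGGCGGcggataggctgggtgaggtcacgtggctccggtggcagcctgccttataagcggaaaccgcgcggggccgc

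Of the 31 genes, 25 had such a window, searched from 250 bases before to 50 after the start, on both strands and with overlaps between motifs allowed. A gene with several start sites counts as holding a motif where any of its windows does. The core TCACNCCA stood in 3 of 25 genes (12%), beside 4.6% of 10953 tested genes with a window and 4.97% of all genes with one. Its first base lay 137 bases before the RefSeq start in Hmgcs1, 177 in Msmo1 and 162 in Srebf2, and in Msmo1 it lies inside the GENCODE gene. The longer sterol regulatory element, with 1 more fixed base at either end, stood in 0 of 25, beside 0.201% of the tested genes. CCAAT stood in 20 of 25 (80%, against 42.7%), GGGCGG in 22 (88%, against 65.2%) and the E-box CACGTG in 6 (24%, against 11.4%). These matches describe letters in a window and not binding. Values differed among genes with the core: at 7 days against 6 weeks Hmgcs1 and Srebf2 fell by 0.79 and 0.89 on the log2 scale, while Msmo1 had an uncalled value of 0.61.

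Of the 4 genes of uptake, transport and storage, 2 were lower at each younger age than at 6 weeks (50%). The backgrounds were 19.7% at 2 days, 26.6% at 7 days and 9.26% at 14 days. Npc2 and Npc1 hand cholesterol from the lysosome to the rest of the cell. Npc2 (chr12:84754562-84773152, minus strand) was at 125, 126 and 123 CPM at 2 days, 122, 113 and 116 at 7 days, 110, 127 and 119 at 14 days, and 162, 153 and 177 at 6 weeks. The 2-day libraries lay just above the 7-day ones, the 14-day libraries overlapped both, and all 6-week libraries lay above the 9 younger ones, with log2 fold changes of -0.40 ± 0.10 (SE, adjusted p = 0.00608) at 2 days, -0.48 ± 0.10 (SE, adjusted p = 0.00128) at 7 days and -0.47 ± 0.10 (SE, adjusted p = 0.00563) at 14 days. Npc1 was at 45.8, 65.3 and 46.2 CPM at 2 days, 49.8, 54.7 and 45.1 at 7 days, 62.2, 53.03 and 61.7 at 14 days, and 72.9, 70.4 and 70.95 at 6 weeks, and here too the 6-week libraries were the 3 highest. It was called lower at 7 days (log2 -0.52 ± 0.14 SE, adjusted p = 0.00803) and at 2 days (log2 -0.45 ± 0.14 SE, adjusted p = 0.0225), not at 14 days (log2 -0.28 ± 0.14 SE, adjusted p = 0.190), and the 2-day call ended without 2-day replicate 3 or either of 6-week replicates 1 and 3 (-0.45 to -0.39). Stard4, a carrier of sterol between membranes, was lower at 14 days only (log2 -0.75 ± 0.17 SE, adjusted p = 0.0110).

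Soat1, which esterifies cholesterol for storage, showed how much 1 library can weigh. Its levels were 49.2, 200 and 56.9 CPM at 2 days, 118, 154 and 122 at 7 days, 86.9, 86.4 and 91.3 at 14 days, and 123, 134 and 122 at 6 weeks. The highest of the 12 libraries was 2-day replicate 2, and the other 2-day libraries were the lowest. With all libraries the log2 fold change at 2 days against 6 weeks was -0.31 ± 0.40 (SE, adjusted p = 0.563), and without 2-day replicate 2 it was -1.25 and called. Without that library Soat1 was also called at 7 days against 2 days (1.33), and its difference between 14 and 2 days turned from -0.21 to 0.74. The same library also held the highest 2-day values of Msmo1, Ebp, Npc1 and Abcg1, among other genes. It held the lowest 2-day values of Fdps, Hsd17b7, Srebf1 and Insig1, among other genes. Soat1 and this library were singled out after their values were seen.

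Among the LXR and efflux genes, Nr1h3 and Abca1 were lower at all 3 younger ages and Abcg1 at 2 and 7 days, and each had its 3 highest libraries at 6 weeks. Nr1h3, which encodes LXR alpha (chr2:91184061-91202834, minus strand), had the largest change of all 31 genes. It was at 3.52, 5.63 and 4.33 CPM at 2 days, 19.4, 21.2 and 18.03 at 7 days, 5.66, 15.6 and 14.5 at 14 days, and 49.5, 48.05 and 54.96 at 6 weeks. The 2-day libraries were the lowest on average, with 14-day replicate 1 only just above the highest of them, and the 6-week libraries stood above all others. Against 6 weeks it was 11.4-fold lower at 2 days (log2 -3.50 ± 0.32 SE, adjusted p = 4.42e-06), 2.60-fold lower at 7 days (log2 -1.38 ± 0.29 SE, adjusted p = 0.00168) and 4.26-fold lower at 14 days (log2 -2.09 ± 0.29 SE, adjusted p = 0.000568). All 3 calls were kept whichever single library was left out. Nr1h2, which encodes LXR beta, was far more abundant per length of annotated exon (54.7 CPM per kb over all libraries, beside 8.63 for Nr1h3). It was called higher at 2 days, with a log2 fold change against 6 weeks of 0.36 ± 0.13 (SE, adjusted p = 0.0466). That call ended in 9 of the 12 fits without a single library, those without 2-day replicate 2 and 14-day replicates 1 and 3 being the exceptions.

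Abca1, which loads cholesterol onto lipid-poor apolipoprotein (chr4:53030787-53159895, minus strand), was at 43.5, 57.98 and 69.2 CPM at 2 days, 64.2, 68.1 and 70.4 at 7 days, 24.7, 33.5 and 33.9 at 14 days, and 121, 86.5 and 89.4 at 6 weeks. The order was 14 days, then 2 and 7 days, which overlapped, then 6 weeks. It was 3.22-fold lower at 14 days (log2 -1.69 ± 0.19 SE, adjusted p = 0.000137), 1.74-fold lower at 2 days (log2 -0.80 ± 0.18 SE, adjusted p = 0.00431) and 1.46-fold lower at 7 days (log2 -0.55 ± 0.18 SE, adjusted p = 0.0239). The 7-day call ended without any single 7-day library or 6-week replicate 1 (-0.55 to -0.38). Abcg1, which exports cholesterol to mature lipoprotein particles, was at 35.1, 76.3 and 45.8 CPM at 2 days, 76.2, 83.8 and 71.8 at 7 days, 109, 82.3 and 91.7 at 14 days, and 125, 113 and 140 at 6 weeks. Its lowest mean was at 2 days, 2.40-fold below 6 weeks (log2 -1.26 ± 0.23 SE, adjusted p = 0.000908), and at 7 days it was 1.63-fold lower (log2 -0.70 ± 0.23 SE, adjusted p = 0.0205), the latter not without 7-day replicate 1 or 3 or 6-week replicate 3 (-0.66 to -0.62). Thus the receptor and both exporters were all highest at 6 weeks, but their lowest ages differed.

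Macrophages also express LXR alpha and both exporters, and the summed macrophage and monocyte markers had the same order of ages as the means of Nr1h3: 2 days, 14 days, 7 days and 6 weeks. Of 17 such markers 14 were lower at 2 days (82.4%, background 19.7%), 10 at 7 days (58.8%, background 26.6%) and 13 at 14 days (76.5%, background 9.26%) than at 6 weeks. Marco was higher at 7 days (background 24.5%) and Ccr2 at 14 days (background 9.68%), both named after their values were seen. From 2 to 7 days 13 of the markers rose (76.5%, background 22.9%) and 0 fell (background 25.8%). None of the defining macrophage markers examined was at 0: Adgre1 was at 33.5, 45.9 and 30.7 CPM at 2 days, 159, 167 and 162 at 7 days, 84.3, 111 and 97.9 at 14 days, and 224, 211 and 245 at 6 weeks, and the complement gene C1qa at 71.1, 64.2 and 69.4 CPM at 2 days, 233, 204 and 222 at 7 days, 26.2, 76.9 and 91.1 at 14 days, and 455, 504 and 511 at 6 weeks. Their part in the levels of Nr1h3, Abca1, Abcg1, Npc1 and Npc2 was not tested. Abca1 had another order than the marker sum, with 24.7 to 33.9 CPM at 14 days, below the 43.5 to 69.2 at 2 days. The marker sum at 14 days (1697 to 2023 CPM) overlapped that at 2 days (1125 to 1771). Single markers differed in their order: the means of Adgre1 had that of Nr1h3. The means of C1qa had that of Abca1, with 64.7 CPM at 14 days, 68.2 at 2 days, 220 at 7 days and 490 at 6 weeks.

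**Figure D3:**
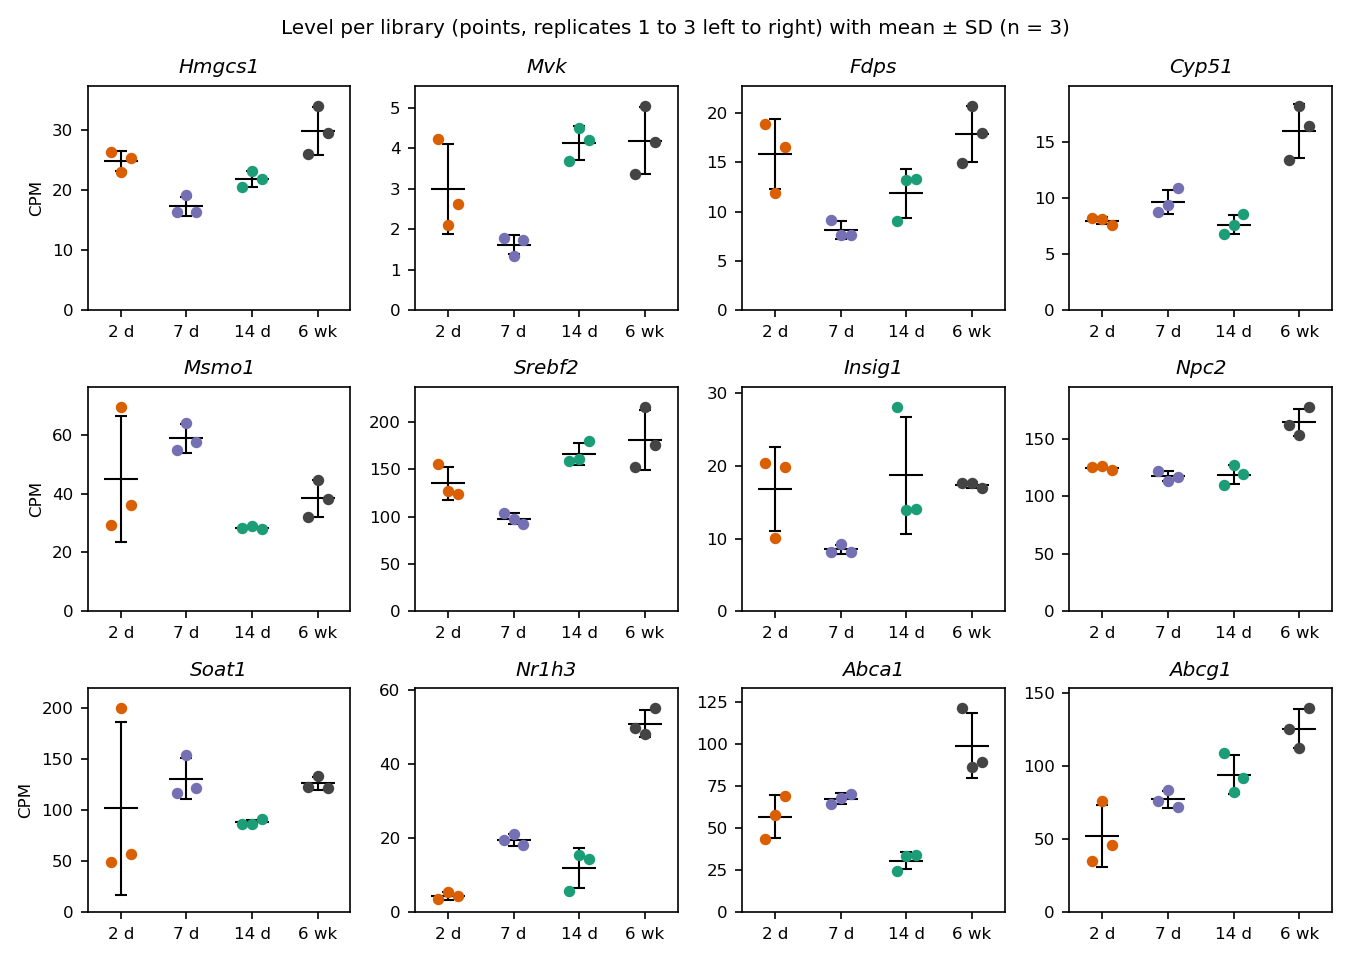
CPM (y axis) of 12 sterol genes in each library at 2, 7 and 14 days and 6 weeks, with bars at the mean ± SD of 3 libraries. The 7-day libraries are the lowest for Hmgcs1, Mvk, Srebf2 and Insig1, those at 6 weeks are the highest for Cyp51, Npc2, Nr1h3, Abca1 and Abcg1, and 2-day replicate 2 stands apart for Msmo1 and Soat1.

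Between the younger ages called sterol genes were mostly lower at 7 days than at 2 or 14 days, except that with library totals alone the calls from 2 to 7 days were evenly split. From 2 to 7 days 11 of 31 were lower (35.5%, background 25.8%) and 2 higher (6.45%, background 22.9%). From 7 to 14 days 13 were higher (41.9%, background 24%) and 4 lower (12.9%, background 21.9%). Between 2 and 14 days 3 were higher (9.68%, background 12.8%) and 3 lower (9.68%, background 12.3%), shares under those of all genes. These comparisons share the 7-day or 2-day libraries. With library totals alone 5 were higher and 5 lower from 2 to 7 days, 7 higher and 4 lower from 7 to 14 days, and 3 higher and 1 lower between 2 and 14 days. The count of 11 became 4 without 7-day replicate 3, 5 without 2-day replicate 1, 6 without 2-day replicate 3 and 7 without 7-day replicate 2. Without 2-day replicate 2, 6 were higher from 2 to 7 days and 8 lower from 7 to 14 days. Between 2 and 14 days that fit called 6 higher and 6 lower, and 5833 rather than 3882 of all genes. The 3 higher there became 5 without 2-day replicate 1 and 1 without 2-day replicate 3, and the 3 lower became 1 without 2-day replicate 3, 6-week replicate 3, or any single 7-day or 14-day library.

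Pmvk, Fdps, Hmgcs1 and Nr1h2 were lower at 7 than at 2 days whichever single library was left out. Their log2 fold changes were -1.26 ± 0.24 (SE, adjusted p = 0.00111), -0.96 ± 0.20 (SE, adjusted p = 0.00212), -0.53 ± 0.12 (SE, adjusted p = 0.00365) and -0.61 ± 0.13 (SE, adjusted p = 0.00245). The other 7 lower calls (Mvk, Hsd17b7, Sc5d, Srebf1, Srebf2, Scap and Insig1) each ended without at least 1 library. Nr1h3 rose 4.37-fold over the same days (log2 2.13 ± 0.30 SE, adjusted p = 0.000140) and Acat2 2.01-fold (log2 1.005 ± 0.22 SE, adjusted p = 0.00244), and both calls held without any 1 library.

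From 7 to 14 days the rises of Mvk, Hsd17b7, Sc5d, Srebf2, Insig1, Tm7sf2 and Nr1h2 held without any 1 library. Mvk rose 2.53-fold (log2 1.34 ± 0.27 SE, adjusted p = 0.00156), Insig1 2.19-fold (log2 1.13 ± 0.29 SE, adjusted p = 0.00719), Hsd17b7 2.03-fold (log2 1.02 ± 0.26 SE, adjusted p = 0.00717) and Srebf2 1.70-fold (log2 0.77 ± 0.14 SE, adjusted p = 0.000855). The other 6 rises (Hmgcs1, Fdps, Fdft1, Nsdhl, Srebf1 and Scap) each ended without at least 1 library, and the count of 13 became 8 without 7-day replicate 3 or 14-day replicate 2. Abca1, Msmo1, Acat2 and Stard4 fell over these days, Abca1 by 1.14 and Msmo1 by 1.05 on the log2 scale (adjusted p = 0.000435 and 0.00480), and all 4 falls held without any 1 library. Between 2 and 14 days only the rise of Nr1h3 (log2 1.41 ± 0.30 SE, adjusted p = 0.00457) and the fall of Abca1 (log2 -0.89 ± 0.18 SE, adjusted p = 0.00390) held in every such fit. The other 4 calls were Nsdhl and Abcg1 higher, and Pmvk and Stard4 lower.

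**Figure D4:**
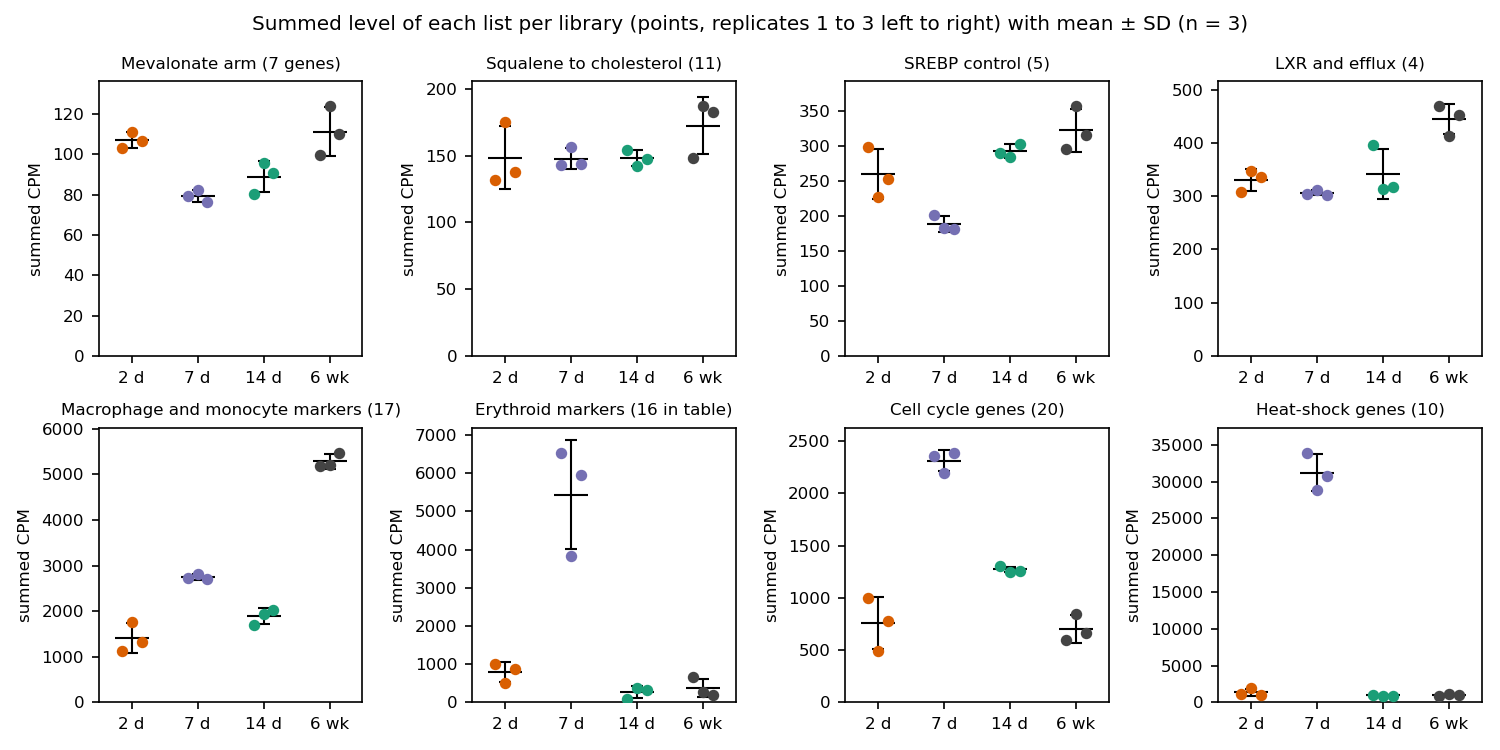
Summed CPM (y axis) per library of 4 groups of sterol genes (top) and of 4 marker lists (bottom) at 2, 7 and 14 days and 6 weeks, with bars at the mean ± SD of 3 libraries. The mevalonate and control groups reach their lowest sums at 7 days, where the erythroid, cell cycle and heat-shock sums are highest, and macrophage marker sums are highest at 6 weeks.

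The age of 7 days, at which 17 of the 26 called sterol genes had their lowest mean, also stood apart in other lists. At 7 days against 6 weeks 16 of 16 erythroid markers tested, 19 of 20 cell cycle genes and 10 of 10 heat-shock genes were higher (background 24.5%). The inducible heat-shock gene Hspa1a was at 9.45, 24.3 and 9.31 CPM at 2 days, 13370, 10670 and 11470 at 7 days, 19.1, 10.9 and 16.2 at 14 days, and 109, 64.6 and 91.2 at 6 weeks, and the cell cycle gene Mki67 at 193, 135 and 169 CPM at 2 days, 630, 636 and 690 at 7 days, 341, 322 and 321 at 14 days, and 125, 185 and 148 at 6 weeks. Neutrophil markers were called in both directions, with 3 of 14 higher (21.4%) and 5 lower (35.7%, background 26.6%), as were those of mast cells (8 of 10 higher, 1 lower), stroma and endothelium (5 of 9 higher, 1 lower), B cells (1 of 9 each way) and T and NK cells (1 of 9 higher, 2 lower). The part of these lists in the sterol gene levels at 7 days was not tested.

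Beyond the 31 genes, 30 others of sterol handling were listed, of which 28 were tested. At 7 days 16 were lower than at 6 weeks (57.1%, background 26.6%) and 1 higher (3.57%, background 24.5%), with a median of -0.33. At 2 days 6 were lower (21.4%, near the background of 19.7%) and 3 higher (10.7%, background 20.7%). At 14 days 5 were lower (17.9%, background 9.26%) and 0 higher (background 9.68%). Cyp27a1, which makes an oxysterol ligand of the liver X receptors, was at 2.55, 2.04 and 2.08 CPM at 2 days, 4.75, 5.19 and 4.70 at 7 days, 13.9, 21.2 and 18.2 at 14 days, and 20.4, 17.6 and 14.3 at 6 weeks. It was 7.82-fold lower at 2 days (log2 -2.97 ± 0.20 SE, adjusted p = 3.94e-07) and 3.58-fold lower at 7 days (log2 -1.84 ± 0.18 SE, adjusted p = 9.71e-06) than at 6 weeks, and its 14-day and 6-week libraries overlapped. Lrp1, an endocytic receptor for lipoprotein remnants, was at 104, 93.01 and 80.99 CPM at 2 days, 277, 275 and 232 at 7 days, 236, 299 and 305 at 14 days, and 375, 448 and 428 at 6 weeks, and lower at all 3 younger ages by 2.17, 0.67 and 0.57 on the log2 scale (adjusted p = 5.01e-07, 0.00180 and 0.0145).

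A further list held 5 genes listed as LXR targets, beside Abca1 and Abcg1, and 3 nuclear receptors. Whether these 5 are LXR targets in these cells was not tested. The receptors were Rxra and Rxrb, which encode dimer partners of the liver X receptors, and Nr1h4, which did not pass the filter on low counts. Of the 5 listed targets 4 were lower at 7 days than at 6 weeks (background 26.6%) and 0 higher, with a median of -0.63. At 2 days 1 was higher and 1 lower (20% each, near the backgrounds of 20.7% and 19.7%). At 14 days 1 was higher (20%, background 9.68%) and 0 lower (background 9.26%). Rxra was lower at 2, 7 and 14 days (log2 -0.35 ± 0.11 SE, adjusted p = 0.0180, log2 -0.52 ± 0.11 SE, adjusted p = 0.00151, and log2 -0.74 ± 0.11 SE, adjusted p = 0.000664), and Rxrb was called at none of the 3 ages. The list was parted in this way, and the receptors named, after their values were seen. Abca2, a lipid transporter of endosomes, was at 53.02, 39.05 and 42.02 CPM at 2 days, 24.04, 19.9 and 23.03 at 7 days, 49.7, 45.8 and 49.2 at 14 days, and 46.98, 42.2 and 46.1 at 6 weeks, 2.02-fold lower at 7 days (log2 -1.01 ± 0.12 SE, adjusted p = 4.44e-05) with uncalled log2 fold changes of -0.01 and 0.10 at 2 and 14 days. Lpcat3, which remodels membrane phospholipids, was higher at 2 days (log2 0.57 ± 0.12 SE, adjusted p = 0.00287) and lower at 7 days (log2 -0.53 ± 0.12 SE, adjusted p = 0.00338).

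Fatty acid genes driven by SREBP did not move as one group. Of 12, 5 were higher (41.7%, background 24.5%) and 2 lower (16.7%, background 26.6%) at 7 days than at 6 weeks, with a median of 0.54. At 2 days 5 were higher and 2 lower (backgrounds 20.7% and 19.7%), and at 14 days 0 were higher and 2 lower (backgrounds 9.68% and 9.26%). Acss2, which makes acetyl-CoA from acetate, was at 13.9, 17.8 and 15.3 CPM at 2 days, 8.77, 10.2 and 9.58 at 7 days, 24.1, 20.9 and 20.8 at 14 days, and 38.1, 36.3 and 39.2 at 6 weeks, and its lowest age was 7 days, 3.98-fold below 6 weeks (log2 -1.99 ± 0.12 SE, adjusted p = 3.96e-07). Fads2, a fatty acid desaturase, was at 4.75, 1.28 and 2.63 CPM at 2 days, 4.51, 3.44 and 3.80 at 7 days, 0.204, 0.299 and 0.270 at 14 days, and 0.502, 0.318 and 0.383 at 6 weeks. It was 9.72-fold higher at 7 days (log2 3.28 ± 0.42 SE, adjusted p = 6.35e-05) and 7.21-fold higher at 2 days (log2 2.85 ± 0.42 SE, adjusted p = 0.000230), and the 14-day libraries lay below those at 6 weeks without a call.

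Levels of different genes were set side by side per kilobase of exon, merged over all annotated exons of a gene. This length need not be that of the transcript expressed, so the ranking across genes is only approximate. Nr1h2 (54.7 CPM per kb over the 12 libraries), Npc2 (24.1), Srebf2 (20.2), Mvd (16.1), Ebp (12.9), Abcg1 (11.98) and Soat1 (11.4) stood highest among the 31 genes. Lss (0.374, over a merged exon length of 10787 bases) and Sqle (0.785, over 5546 bases), both of the squalene arm, stood lowest. Within the mevalonate arm Mvd was highest and Mvk (1.21) lowest, so the largest 7-day fold change of the arm lay in its least abundant transcript.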

How the data were processed

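Polyadenylated RNA of Ly6G+ spleen cells at 4 ages was measured in 12 libraries. Trizol extraction, random hexamer priming and PCR amplification were used, per the labels' protocols. The deposited table holds whole-number counts per gene, and the submitters' processing notes name RSEM 1.2.3, DESeq2 and mm10, in roles not given in the sources used here. The counts may be rounded RSEM estimates, which divide reads between similar genes. Symbols, positions and exon lengths came from GENCODE M21 (37570 of 38887 identifiers matched). The 1317 others stayed in the library totals.

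The main test was edgeR 4.0.16 in R 4.3.3 (filterByExpr with minimum count 10, TMM factors, glmQLFit and glmQLFTest), 1 model of age over all 12 libraries, with Benjamini-Hochberg adjustment over 15494 genes and a threshold of 0.05. SE is the absolute log2 fold change over the square root of F. At 34495767 to 38795913 counts per library, the rarest sterol gene had 51 counts in its lowest library. Alternatives were library totals, RLE factors, no filter, DESeq2 1.42.0, limma-voom (limma 3.58.1), pairs of ages only, a replicate block and leaving out each library; leaving out 2-day replicate 2 and 14-day replicate 1 together was added after seeing the data. The fit was tested on simulated counts. Values in every library are printed for members called in at least 2 of the 3 comparisons with 6 weeks, or called in any comparison with an absolute log2 fold change of 1 or more, and from each other list the 2 genes of smallest joint p may be named, besides fixed markers. The members and lists were chosen with earlier results of these data known. No library pair of an age was a repeat deposit by a chi-square comparison of counts. Replicate numbers were not treated as pairs in the main test. Promoter windows came from RefSeq.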

Additional observations from a re-analysis of the deposited data

How the results depend on the processing

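Of 77 called comparisons of a sterol gene, 47 were kept with library totals alone (5 others gained), 74 with relative log expression factors, 67 without the filter on low counts, 76 with DESeq2, 73 with limma-voom, 66 with only the pair of ages in the fit and 70 with a replicate block, and none reversed. Counts that moved by over 1.5 times were as follows. With library totals alone they were 1 higher and 12 lower at 7 days against 6 weeks, 3 lower at 14 days against 6 weeks, 5 higher and 5 lower at 7 against 2 days, 7 higher at 14 against 7 days, and 1 lower at 14 against 2 days. The share of called sterol genes that were higher then moved from 15.4% to 50% at 7 against 2 days, from 76.5% to 63.6% at 14 against 7 days and from 50% to 75% at 14 against 2 days. Without the filter 0 were higher at 2 days and 1 at 7 days against 6 weeks. DESeq2 and limma-voom each gave 1 higher at 7 days against 6 weeks, and limma-voom 1 lower at 14 against 2 days. With only the pair of ages in the fit there were 2 higher at 7 days against 6 weeks, 7 lower at 7 against 2 days, and 1 higher and 1 lower at 14 against 2 days. With a replicate block there was 1 higher at 7 days against 6 weeks. Same-numbered libraries of different ages correlated in their deviations at -0.364 to 0.325 over 18 pairs, with 3 above 0.1. Libraries of other numbers gave -0.336 to 0.302 over 36 pairs, with 12 above 0.1. These are deviations from means of 3 libraries, so the check cannot exclude a batch shared by number.

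Leaving out single libraries, or 2-day replicate 2 with 14-day replicate 1, 23 to 30 sterol genes differed among ages. Against 6 weeks 0 to 2 were higher and 7 to 14 lower at 2 days, 0 to 2 higher and 14 to 24 lower at 7 days, and 5 to 17 lower at 14 days. Ranges were 2 to 7 higher and 4 to 12 lower at 7 against 2 days, 8 to 14 higher and 4 to 8 lower at 14 against 7 days, and 1 to 8 higher and 1 to 6 lower at 14 against 2 days. Of the 77 calls 45 were kept in all 12 fits without a single library. Over these 12 fits and the fit without both 2-day replicate 2 and 14-day replicate 1, 2 genes changed sign and gained a call. Sign changes without a call were not tallied. The log2 fold change of Soat1 at 14 against 2 days ran from -0.50 to 0.75. That of Insig1 ran from -0.52 to 0.34 in the same comparison and from -0.31 to 0.28 at 14 days against 6 weeks. The values of 0.75 and -0.52 came from the fit without both libraries. Over all genes, calls at 14 days against 6 weeks numbered 2934 with all libraries, 4685 without 2-day replicate 2, 4869 when 14-day replicate 1 was left out too, and 1709 or 1677 when 6-week replicate 1 or 3 was left out. At 14 against 2 days they numbered 3882, 5833 without 2-day replicate 2, 6249 without both and 1952 with only that pair of ages. Apart from fits with fewer libraries, the cause of these shifts was not tested. Depth limits little here, since each sterol gene had at least 51 counts in every library.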
